A study of Arabidopsis thaliana with 12 samples.

Results

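Arabidopsis seedlings that overexpressed HRE1 were compared with seedlings that overexpressed HRE2, both after low oxygen. The comparison took the 2 arrays titled for the HRE1 line in hypoxia and the 2 titled for the HRE2 line in hypoxia, 4 of the 12 arrays of the study. The arrays were taken by these titles, and the comparison itself was picked with earlier results of these data known. The other 8 arrays, the same lines in air and wild-type (WT) seedlings in air and in hypoxia, gave the shared estimate of the spread and the reference levels.

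The seedlings were of the Columbia-0 (Col-0) ecotype and 7 days old. WT air replicate 2 is titled as Col-0 wild type but its ecotype entry says 35S::HRE2, and it was grouped by title. All were grown on Murashige and Skoog medium with 30 mM sucrose at 23 °C in a photoperiod of 12 h light and 12 h dark. The line called HRE1ox here carried 35S::HRE1 and the line called HRE2ox carried 35S::HRE2, so each transgene was driven by the constitutive 35S promoter of cauliflower mosaic virus and each plant also kept its own copies of both genes. Hypoxia was 1% oxygen and air was 21% oxygen, each for 4 h in darkness at 23 °C. RNA came from whole plants, and each group had 2 arrays that the study describes as biological replicates. The labels do not say how many independent transformants stood behind a line, so an effect of the transgene and a difference between the particular plants used cannot be told apart.

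HRE1 and HRE2 belong to group VII of the ethylene response factors, within the AP2/ERF family of transcription factors. Proteins of this group carry an N-terminal cysteine that oxygen-dependent enzymes oxidise, which marks the protein for degradation in air, and under low oxygen the proteins accumulate in the nucleus and activate genes of fermentation and of the anaerobic response. HRE1 and HRE2 are themselves transcribed in low oxygen, and the comparison asks where overexpression of one led to other transcript levels than overexpression of the other.

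Levels are given as log2 (intensity + 1) of a probe set, the group of short probes that reads one transcript, and differences are HRE1ox minus HRE2ox on that scale with the limma standard error (SE), n = 2 arrays in each line. A probe set was called when its limma p, adjusted by the Benjamini-Hochberg method over the 13687 probe sets tested, was under 0.05. Probe sets entered the test when 2 or more of the 12 arrays showed an intensity of at least 15, which is log2 4. A line whose mean lay under log2 4 was taken as near background, and the fold is then written as a bound, with that line set to log2 4. Levels of different genes are not compared, since probe sets bind with different strength. In RNA from whole seedlings, fewer cells of a type and less RNA per cell cannot be told apart.

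The 4 arrays were alike in their median intensity, at 32.8 to 34.8. HRE1ox hypoxia replicate 1 stood apart in the 5′ signal of the thr transcript, a control added before labelling, at log2 8.36 against 3.52 to 4.57 on the other 3 arrays. It is 1 of 4 such arrays, the others being replicate 1 of HRE1ox air and of both WT groups, and HRE2ox has none. The 3′ minus 5′ signal of the plants' own GAPDH, a sign of RNA length, was 2.08 and 2.86 in HRE1ox and 2.69 and 2.41 in HRE2ox in hypoxia. Of the markers of plant parts, the 3 assigned root markers summed to intensities of 268 and 223 in HRE1ox against 186 and 167 in HRE2ox, and the green-tissue marker RCA was at 18461 and 12119 against 12969 and 22982. The 2 assigned markers of flower and pollen were near background on every array, and no seed marker had an assigned probe set. The part of these differences in the results below was not tested.

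The largest differences in either direction lay in probe sets that the platform table assigned to no gene. The probe set with the largest excess in HRE1ox read log2 14.09 and 14.41 in HRE1ox, 10.58 and 10.20 in HRE2ox and 10.37 and 10.63 in WT, all in hypoxia. HRE1ox stood above the other 4 arrays, which overlapped with each other, and the difference between the lines was 3.86 ± 0.20 (limma adjusted p = 3.86e-05). The probe set with the largest excess in HRE2ox read 9.83 and 9.17 in HRE1ox, 14.40 and 14.52 in HRE2ox and 9.60 and 9.35 in WT. Here HRE2ox stood above the other 4, with a difference of -4.96 ± 0.20 (adjusted p = 6.18e-06). In air the differences were larger, at 7.48 for the first and -11.29 for the second, and the change of the difference between air and hypoxia was itself called for both (adjusted p = 0.00114 and 3.15e-05). In the line where each was high, the levels in air and in hypoxia were close, while the level in the opposite line was higher in hypoxia: the first stood at 6.81 and 6.61 in HRE2ox in air, and the second at 3.15 and 3.17 in HRE1ox in air. No probe set was assigned to HRE1 or HRE2, and these genes are not analysed here.

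In hypoxia 89 of the 13687 tested probe sets were called, which is 0.65%. Of these, 62 were higher in HRE1ox (0.453% of those tested) and 27 were lower (0.197%). The median difference over all tested probe sets was 0.00. The fitted difference was 2-fold or more in 56 of the 89, and the smallest was 0.66 on the log2 scale. With the 20 probe sets that were near background in one line taken at their bound, 44 of the 89 reached 2-fold. Of the 62 that were higher, 10 were at or above log2 4 on no other array than the 2 of HRE1ox in hypoxia, among 18 such probe sets of those tested, so they entered the test only through the group where they were high. With 1 gene these were AT5G48350, AT4G30680, AT5G01700, LCR67 and AT4G16563. No probe set called lower in HRE1ox entered only through HRE2ox in hypoxia. The platform table gave exactly 1 gene to 42 of the 89, 29 higher and 13 lower in HRE1ox, and several genes to 1. At an unadjusted p under 0.05 there were 1187 probe sets (8.67%). Each of the 4 arrays mattered for the number of calls: it was 33 without HRE1ox replicate 1, 31 without HRE1ox replicate 2, 30 without HRE2ox replicate 1 and 28 without HRE2ox replicate 2. In all 4 of these fits 21 of the 89 stayed called, and 48 stayed called in none. With 1 gene, the 10 that stayed called each time were AT4G30380, AT3G47540, AT2G07777, AT2G22880, AT5G48350, AT4G30680, AT5G01700, LCR67, AT1G56060 and AT5G24240, and every other gene named below as called between the lines in hypoxia lost its call without at least 1 of the 4 arrays. With all 4 arrays that stood apart left out it was 4, and all 89 kept their direction. With the status of standing apart as a term in the fit it was 353, 195 higher and 158 lower, among them all 89. The 89 were chosen by their difference on these same arrays, so a kept direction was largely set in advance.

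**Figure D1:**
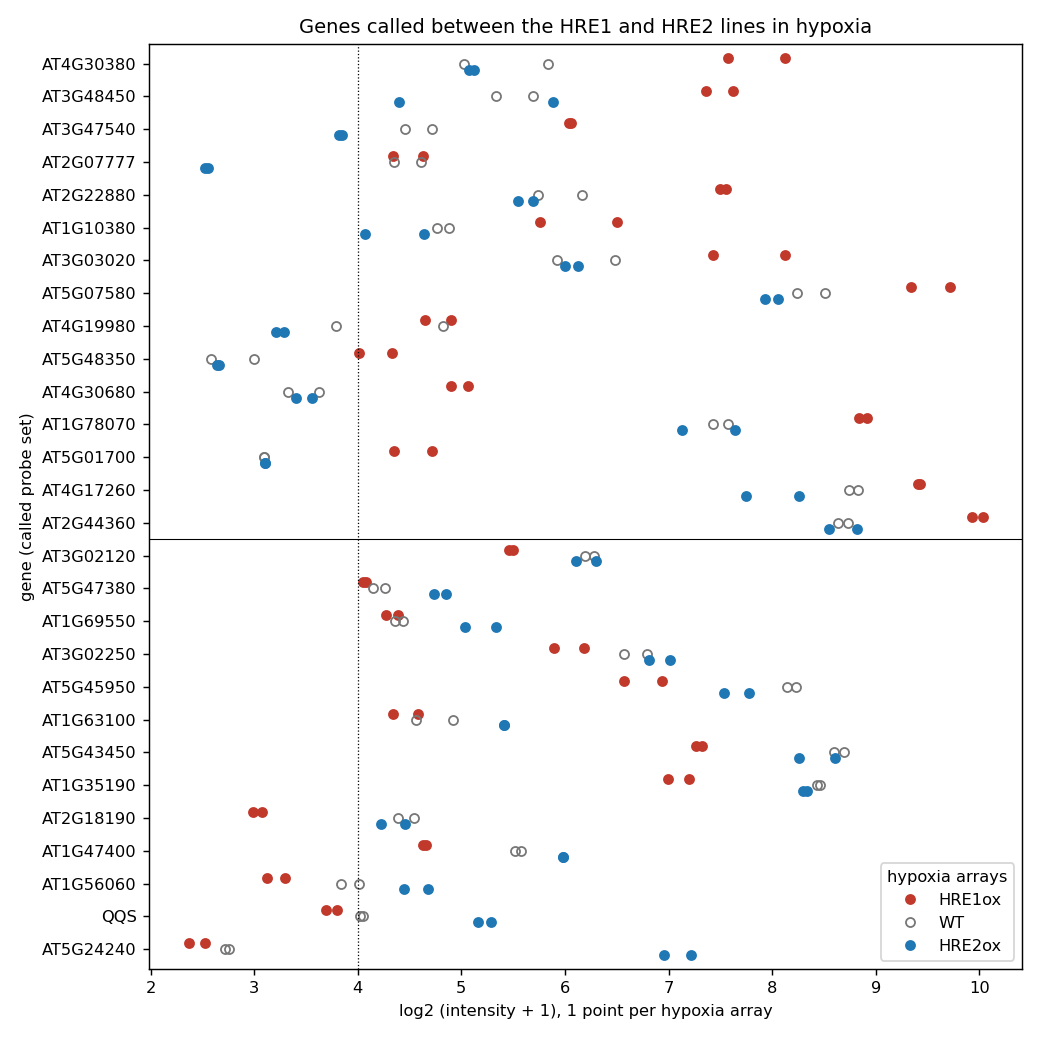
Level of the genes named by rank, in log2 (intensity + 1), on each hypoxia array of HRE1ox (red), WT (open) and HRE2ox (blue); the upper 15 genes were called higher in HRE1ox and the lower 13 were called lower, and the dotted line marks log2 4. In the upper block the HRE1ox arrays lie to the right of the HRE2ox arrays in every gene, and AT5G24240 at the bottom has HRE2ox at 6.96 and 7.22 with HRE1ox and WT below 2.8.

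Among probe sets with 1 gene, the largest excess in HRE1ox was that of AT4G30380, which encodes a small secreted protein related to expansins. It read 8.12 and 7.57 in HRE1ox, 5.12 and 5.07 in HRE2ox and 5.03 and 5.83 in WT in hypoxia. The HRE1ox arrays stood clear of both other groups, which overlapped, and the difference between the lines was 2.75 ± 0.27, a 6.73-fold excess (adjusted p = 0.0022). AT3G47540, a member of the chitinase family, which degrades the chitin of fungal walls, read 6.04 and 6.06 in HRE1ox, 3.82 and 3.84 in HRE2ox and 4.72 and 4.46 in WT. WT thus lay between the lines, and HRE1ox was at least 4.14-fold above HRE2ox (fitted difference 2.22 ± 0.18, adjusted p = 0.00137).

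AT2G22880 encodes a protein with the VQ motif, a family that binds WRKY transcription factors. It read 7.50 and 7.56 in HRE1ox, 5.69 and 5.54 in HRE2ox and 5.74 and 6.16 in WT. The difference of 1.91 ± 0.15 (adjusted p = 0.00109) had the smallest adjusted p of the 29 higher genes. AT3G48450, of the family named for the nitrate-induced NOI domain that the immune regulator RIN4 carries, read 7.36 and 7.63 in HRE1ox but 5.88 and 4.40 in HRE2ox. Its HRE2ox arrays were far apart, the difference of 2.35 ± 0.38 had an adjusted p of 0.0336, and the call was lost without either HRE1ox array (adjusted p = 0.135 and 0.204).

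AT5G07580 encodes another AP2/ERF transcription factor. It read 9.71 and 9.34 in HRE1ox, 7.93 and 8.05 in HRE2ox and 8.51 and 8.24 in WT, so that the 3 genotypes did not overlap. The difference was 1.54 ± 0.17 (adjusted p = 0.00449). AT1G78070, a WD40-repeat protein, was 2.81-fold higher in HRE1ox (8.92 and 8.84 against 7.64 and 7.13, difference 1.49 ± 0.18, adjusted p = 0.00704). AT4G30680, whose protein carries the MA3 domain known from translation control, and AT5G01700, a protein phosphatase of the 2C class, were above log2 4 in HRE1ox and near background in HRE2ox and in WT. Their levels were 5.06 and 4.90 against 3.40 and 3.56 for AT4G30680, at least a 1.97-fold excess (adjusted p = 0.00247). They were 4.35 and 4.72 against 3.10 and 3.10 for AT5G01700, at least 1.45-fold (adjusted p = 0.0022). Both genes entered the test only through the HRE1ox hypoxia arrays.

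AT2G07777 had another pattern. It read 4.34 and 4.63 in HRE1ox and 4.61 and 4.35 in WT, which overlapped, and 2.56 and 2.52 in HRE2ox. The fitted difference between the lines was 1.95 ± 0.18 (adjusted p = 0.00195), at least 1.40-fold, and it was the only one of the 62 that was also called between HRE2ox and WT, where it was lower in HRE2ox (adjusted p = 0.00452). The other 6 of the 15 genes ranked highest by difference were AT1G10380, AT3G03020, AT4G19980, AT5G48350, AT2G44360 and AT4G17260. The first 5 had differences of 1.30 to 1.78 with adjusted p of 0.00376 to 0.0469, with HRE2ox near background for AT4G19980 and AT5G48350, where the excess was at least 1.71-fold and 1.12-fold. AT5G48350 entered the test only through the HRE1ox hypoxia arrays. AT4G17260 is described with the low-oxygen genes.

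A further 14 genes were called higher in HRE1ox with differences of 0.66 to 1.22. By the rule on gene groups, LCR67 and UGT85A4 were named among them. LCR67, which encodes a plant defensin, a small antifungal peptide, read 4.39 and 4.58 in HRE1ox and 3.27 and 3.30 in HRE2ox (adjusted p = 0.00376), at least a 1.40-fold excess. It entered the test only through HRE1ox in hypoxia, and it was the only one called of 6 tested genes of defensins and related cysteine-rich peptides, where 0.453% of all tested probe sets were called higher. UGT85A4, a glycosyltransferase that attaches sugars to small molecules, was called at a difference of 0.91 ± 0.16 (adjusted p = 0.0476), the only one of 26 tested in its family, beside the same 0.453% of all tested. Its call was lost without any 1 of the 4 arrays, without WT air replicate 2, after centring or quantile normalization, without a filter and with a trend. The following were chosen after their values were seen. FHL, which carries the light receptor phytochrome A into the nucleus, read 8.57 and 8.82 against 7.47 and 7.47 (difference 1.22 ± 0.18, adjusted p = 0.0204). AT3G11930, of the universal stress protein family, read 13.26 and 13.33 against 12.46 and 12.25 (difference 0.94 ± 0.14, adjusted p = 0.0234). Prx37, a class III peroxidase of the cell wall, read 8.61 and 8.43 against 7.62 and 7.42 (difference 1.00 ± 0.17, adjusted p = 0.0354).

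Probe sets without a gene made up 33 of the 62 that were higher. After the one given above, the highest were 264436_at (difference 2.94 ± 0.47, adjusted p = 0.0318), 250610_at, 254232_at (2.07 ± 0.22, adjusted p = 0.00376) and 248125_at. For 250610_at and 248125_at HRE2ox and WT were near background, and HRE1ox was at least 1.53-fold and 1.64-fold higher. Both entered the test only through the HRE1ox hypoxia arrays.

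Of the 27 probe sets that were lower in HRE1ox, AT5G24240 had the largest difference among those with a gene. It belongs to the family of phosphatidylinositol 4-kinases of the gamma class. It read 2.37 and 2.53 in HRE1ox, 6.96 and 7.22 in HRE2ox and 2.72 and 2.76 in WT, so it was above background in HRE2ox only among the 6 hypoxia arrays. The fitted difference was -4.64 ± 0.15 (adjusted p = 1.92e-06), and HRE2ox was at least 8.51-fold higher. In air the same pattern was seen, with 2.41 and 2.58 in HRE1ox, 7.66 and 7.35 in HRE2ox and 2.71 and 2.81 in WT. QQS, an Arabidopsis gene without relatives in other genera that affects starch content, read 3.69 and 3.80 in HRE1ox, 5.28 and 5.16 in HRE2ox and 4.05 and 4.03 in WT. HRE2ox was at least 2.33-fold above HRE1ox (fitted difference -1.48 ± 0.19, adjusted p = 0.00866), and the call was lost without any 1 of the 4 arrays, at adjusted p of 0.0647 to 0.0925.

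AT1G47400 encodes a short peptide that promotes iron uptake when iron is scarce. It read 4.66 and 4.63 in HRE1ox, 5.98 and 5.98 in HRE2ox and 5.58 and 5.51 in WT, so HRE1ox was the lowest and HRE2ox the highest, without overlap. The difference was -1.34 ± 0.17 (adjusted p = 0.00866), and without 1 array the adjusted p was 0.0695 to 0.101. It was the only one called of the 3 tested genes of iron deficiency and iron storage, where 0.197% of all tested probe sets were called lower. AT1G56060, which encodes a small cysteine-rich membrane protein (CYSTM), was near background in HRE1ox (3.12 and 3.30) and at 4.45 and 4.68 in HRE2ox, with a fitted difference of -1.35 ± 0.14 (adjusted p = 0.00321), at least a 1.48-fold excess in HRE2ox.

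AT1G35190 and AT5G43450 encode oxygenases that use 2-oxoglutarate and iron. AT1G35190 read 7.20 and 6.99 in HRE1ox, 8.30 and 8.34 in HRE2ox and 8.46 and 8.44 in WT (difference -1.22 ± 0.15, adjusted p = 0.006). AT5G43450 read 7.27 and 7.32 in HRE1ox, 8.61 and 8.26 in HRE2ox and 8.59 and 8.69 in WT (difference -1.14 ± 0.14, adjusted p = 0.00596). In both genes HRE1ox was low and the other 2 genotypes were close. AT1G04350, an oxygenase gene of the same kind that was chosen after its value was seen, was higher in HRE1ox, at 10.01 and 9.85 against 8.94 and 9.05 (difference 0.94 ± 0.15, adjusted p = 0.0267).

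The other 7 genes that were lower in HRE1ox had differences of -0.72 to -1.31. They were AT2G18190 of the AAA-ATPase class, the GRAS transcription factor gene AT1G63100, the GDSL lipase gene AT5G45950, the O-fucosyltransferase gene AT3G02250, the disease-resistance type gene AT1G69550, AT5G47380 and AT3G02120. For AT2G18190 HRE1ox was near background and the difference was at least 1.26-fold. AT5G45950 read 6.93 and 6.57 in HRE1ox, 7.77 and 7.54 in HRE2ox and 8.14 and 8.23 in WT, with both lines below WT. AT1G69550 read 4.27 and 4.39, 5.04 and 5.33, and 4.36 and 4.44 in the same order, with only HRE2ox apart. After the one given above, the lowest probe sets without 1 gene were 252131_at, 251752_at, 261459_at and 250657_at, at -1.29 to -1.40.

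**Figure D2:**
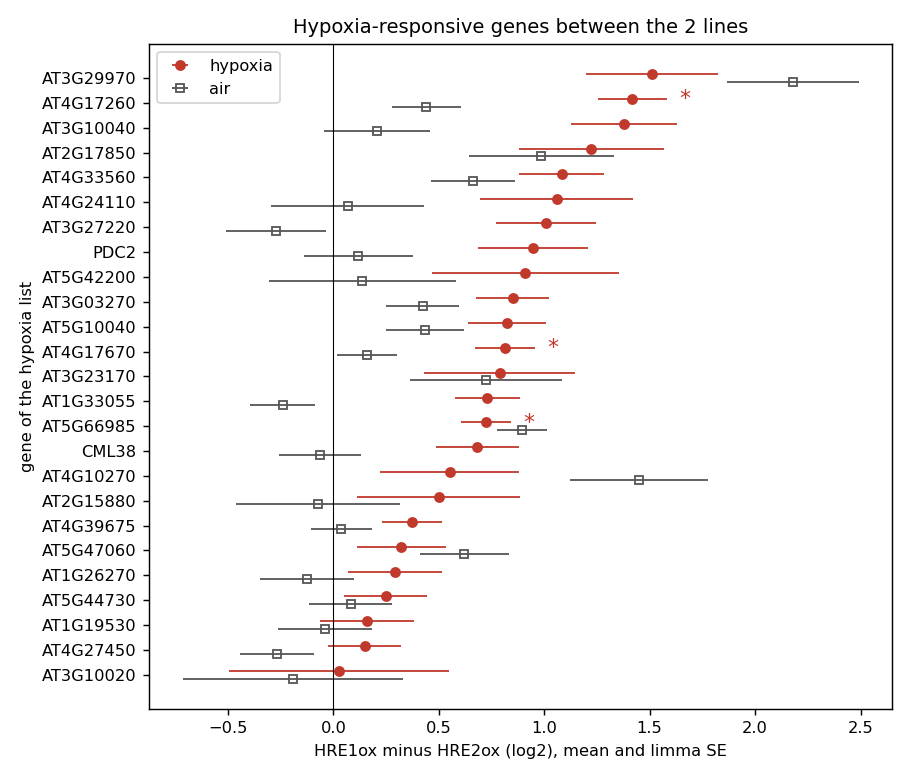
HRE1ox minus HRE2ox (log2, with limma SE) for the 25 tested genes of the low-oxygen list, in hypoxia (red points) and in air (open squares); asterisks mark the 3 genes called in hypoxia. All 25 red points lie above 0, from 0.03 to 1.51, and 8 of the 25 air values lie below 0.

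The genes that seedlings are known to induce in low oxygen were read from a list of 51, of which 27 had an assigned probe set and 25 were tested. In WT 24 of the 25 rose in hypoxia. The list lacks ADH1, PDC1, SUS1, SUS4, HB1, LBD41 and PCO1, which had no assigned probe set and are not analysed here. Between the lines in hypoxia, 3 of the 25 were called, all higher in HRE1ox, where 0.453% of all tested probe sets were. The median difference was 0.79 over the list and 0.00 over all tested probe sets. The fitted difference lay above 0 in 25 of 25, against 50.6% of all tested probe sets, and both HRE1ox arrays lay above both HRE2ox arrays in 22 of the 25 (88%), against 17.9% of all tested. Members that rise together and are read on the same 4 arrays are not independent. These shares thus rest on n = 2 arrays in each line. The median level of the list on each array was 10.67 and 10.85 in HRE1ox, 10.04 and 9.90 in HRE2ox and 10.27 and 10.13 in WT in hypoxia. The HRE1ox arrays were the highest and the HRE2ox arrays the lowest, without overlap. Without the 4 arrays that stood apart the median difference was 0.71, 24 of the 25 lay above 0 and 0 were called. Without any 1 of the 4 hypoxia arrays the median was 0.71 to 0.74. The number called fell to 1 without HRE1ox replicate 1, HRE2ox replicate 1 or HRE2ox replicate 2, to 0 without HRE1ox replicate 2, and to 1 without WT air replicate 2. It rose to 5 with replicate number as a block, 9 with a pseudocount of 16, 10 with that block crossed in HRE2ox and 11 with the status of standing apart as a term.

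In fermentation, AT4G17260 encodes lactate dehydrogenase, which turns pyruvate into lactate. It read 9.41 and 9.43 in HRE1ox, 8.26 and 7.75 in HRE2ox and 8.74 and 8.82 in WT. The genotypes did not overlap, and HRE1ox exceeded HRE2ox by 1.42 ± 0.16, or 2.67-fold (adjusted p = 0.00499). PDC2, a pyruvate decarboxylase of ethanol fermentation, read 10.67 and 11.06 in HRE1ox and 10.07 and 9.77 in HRE2ox. The groups did not overlap, but the difference of 0.95 ± 0.26 did not pass the test (adjusted p = 0.225).

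The other 2 called members were AT4G17670 and AT5G66985. AT4G17670, of a family of zinc-finger proteins with the FLZ domain, read 7.66 and 7.40 in HRE1ox, 6.62 and 6.81 in HRE2ox and 6.82 and 6.60 in WT (difference 0.81 ± 0.14, adjusted p = 0.0436). HRE2ox and WT overlapped there. AT5G66985 read 12.15 and 12.29 in HRE1ox, 11.49 and 11.50 in HRE2ox and 11.82 and 11.79 in WT (difference 0.72 ± 0.12, adjusted p = 0.0336), with WT between the lines.

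Of the members that were not called, AT3G29970 had the largest difference, 1.51 ± 0.31, at 9.60 and 9.62 against 8.13 and 8.07 (adjusted p = 0.0821). AT3G10040, a trihelix transcription factor known to restrain the low-oxygen response, read 10.93 and 10.36 against 9.14 and 9.40 (difference 1.38 ± 0.25, adjusted p = 0.0519). AT4G33560 read 11.08 and 11.02 against 10.04 and 9.90 (difference 1.08 ± 0.20, adjusted p = 0.0538). CML38, a calmodulin-like calcium sensor, read 10.97 and 11.13 against 10.47 and 10.27 (difference 0.68 ± 0.20, adjusted p = 0.258). In each of these 4 genes both HRE1ox arrays lay above both HRE2ox arrays. The 5 smallest differences, 0.03 to 0.29, were those of AT3G10020, AT4G27450, AT1G19530, AT5G44730 and AT1G26270.

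In air the list differed less between the lines, but several of its genes were near background there in both lines, with uncertain differences. The median difference was 0.14, 17 of 25 lay above 0 (47.6% of all tested probe sets did), and 2 were called higher in HRE1ox, AT5G66985 (0.90, adjusted p = 0.0143) and AT3G29970 (2.18, adjusted p = 0.0214). For AT3G29970 HRE2ox was near background in air, at 2.57 and 2.59 against 4.31 and 5.22 in HRE1ox. The size of its difference in air is therefore uncertain. The background was 0.431% of tested probe sets called higher in air. The change of the line difference between air and hypoxia had a median of 0.42 over the list and 0.03 over all tested probe sets. It was called for 0 of the 25 by limma, where 0.292% of all tested probe sets were called, and 7 of the 25 had an unadjusted p under 0.05, against 6.79% of all tested. Of these 7, AT3G10040, AT3G27220, AT4G17670 and CML38 were near background in both lines in air, so the size of their change is uncertain. AT4G17260, PDC2 and AT1G33055 were above log2 4 in both lines in air. Set beside WT in hypoxia, the list had a median of 0.52 in HRE1ox with 2 of 25 called higher, AT3G29970 and AT4G17670 (0.511% of all tested were), and of -0.13 in HRE2ox with 0 called. These comparisons share the WT arrays.

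Genes of glycolysis, which feeds fermentation, had 8 tested members, all with a fitted difference above 0 and a median of 0.21. None was called, 1 had an unadjusted p under 0.05 (8.67% of all tested probe sets did), and in air the median was 0.21 as well. Of 8 tested genes of oxidative and mitochondrial stress none was called, 4 had an unadjusted p under 0.05 beside the same 8.67% of all tested, and the median was -0.36. These 4 did not share a direction, as CML38, described above, was higher in HRE1ox and the others were lower. The chloroplast-encoded genes, which are transcribed in shared units and so are not independent, had a median of -0.21 over 69 tested members, with 8 above 0 (50.6% of all tested were), 0 called and 7 at an unadjusted p under 0.05, a share close to the 8.67% of all tested. Their median level per array was 11.40 and 11.23 in HRE1ox, 11.43 and 11.62 in HRE2ox and 11.66 and 11.31 in WT in hypoxia, so the lines did not overlap but their nearest arrays were close, and WT spanned HRE2ox. In air their median difference was -0.32.

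Expansins, which loosen cell walls during growth, had 12 tested members with a median of 0.18 in hypoxia and 0.67 in air. None was called in either, where 0.65% and 0.533% of all tested probe sets were. Some of these expansins are also among the root hair markers. Root hair markers had 3 tested members with differences of 0.25 to 0.45. All 3 were near background in both lines in hypoxia, so these differences are uncertain. Root markers had 2 tested members, with 0.29 and 0.55. None of these 5 was called in hypoxia, and both root markers had an unadjusted p under 0.05, where 8.67% of all tested probe sets had. The summed level of root markers given above contains these 2 root markers and is not a separate measure. Among the 10 tested autophagy genes, most of them of the ATG8 family, the median was -0.22 with 0 called, beside 0.65% of all tested probe sets. Of the 26 gene groups with 3 or more tested members, 22 had no called member in hypoxia. The 4 with a called member were the low-oxygen genes, iron deficiency and storage, the UDP-glycosyltransferases and the defensins.

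**Figure D3:**
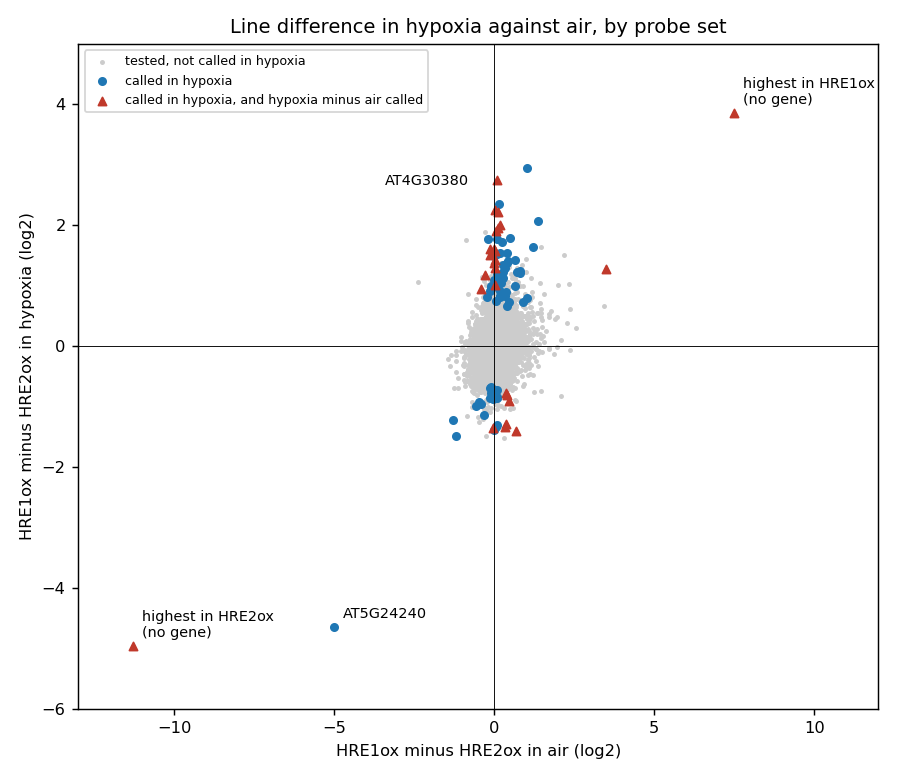
HRE1ox minus HRE2ox (log2) in hypoxia against the same difference in air, 1 point for each of the 13687 tested probe sets; blue circles were called in hypoxia, and red triangles also had a called change of the difference between air and hypoxia. Most called points lie near 0 on the air axis, while AT5G24240 and the 2 probe sets without a gene that were highest in each line lie far from 0 on both axes.

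The same lines were compared in air on other arrays, apart from the pooled spread. There 73 probe sets were called (0.533%), 59 higher in HRE1ox (0.431%) and 14 lower (0.102%), and 10 were called in both air and hypoxia. These 10 are 11.2% of those called in hypoxia and 13.7% of those called in air, and all had the same direction. With 1 gene they were AT5G66985, higher in HRE1ox, and AT5G24240, QQS and AT1G35190, lower in HRE1ox. AT1G35190 read 7.74 and 7.46 in HRE1ox and 8.94 and 8.85 in HRE2ox in air, a difference of -1.30 (adjusted p = 0.00627). In both conditions both HRE1ox arrays lay below both HRE2ox arrays, and the change of the difference was 0.07 ± 0.21 (adjusted p = 0.979). Of the 89, 65 had the same fitted direction in air, where 8227 of all 13687 tested probe sets had. Leaving out an air array gave 37 calls in air (replicate 1 of HRE1ox), 18 (replicate 2 of HRE1ox), 18 (replicate 1 of HRE2ox) or 23 (replicate 2 of HRE2ox).

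The change of the line difference between air and hypoxia was called in 40 probe sets (0.292%), and 27 of the 89 were among them, 19 of the higher and 8 of the lower. In 24 of those 27 the lines were not called in air. Several of the 19, with AT4G30680, AT5G48350 and AT5G01700 among them, entered the test only through the HRE1ox hypoxia arrays. For these the filter itself kept both lines under log2 4 in air, so a missing call in air and a change above 0 were largely set in advance. Among the genes of the 27, the largest changes were those of AT4G30380 (2.66 ± 0.37, adjusted p = 0.0351), AT3G47540 (2.09 ± 0.26, adjusted p = 0.0196), AT2G22880 (1.87 ± 0.21, adjusted p = 0.015), AT2G07777 (1.85 ± 0.25, adjusted p = 0.0303) and AT1G47400 (-1.68 ± 0.24, adjusted p = 0.0359). In air the first 4 were near background in every group: AT4G30380 read 2.84 and 3.20 in HRE1ox and 2.91 and 2.94 in HRE2ox, and AT2G22880 read 3.09 and 3.12 against 3.06 and 3.07. The size of such a change is therefore uncertain. AT1G47400 read 4.80 and 5.02 in HRE1ox and 4.74 and 4.42 in HRE2ox in air, where HRE1ox was not called apart. Of the 13 called probe sets outside the 89, AT2G04050 (-2.92 ± 0.45, adjusted p = 0.0373) and AT5G57760 (-1.96 ± 0.27, adjusted p = 0.0328) had the largest changes with 1 gene. Their lines were called apart in air (2.09, adjusted p = 0.0268, and 1.95, adjusted p = 0.00285) and not in hypoxia (-0.83, adjusted p = 0.454, and -0.01, adjusted p = 0.999). A further 55 of the 89 were called neither in air nor for the change, so for these it was not shown that the lines differed more in hypoxia than in air. The 40 became 5 to 9 without any 1 of the 8 arrays of the lines, 19 without WT air replicate 2 and 1 without the 4 arrays that stood apart.

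**Figure D4:**
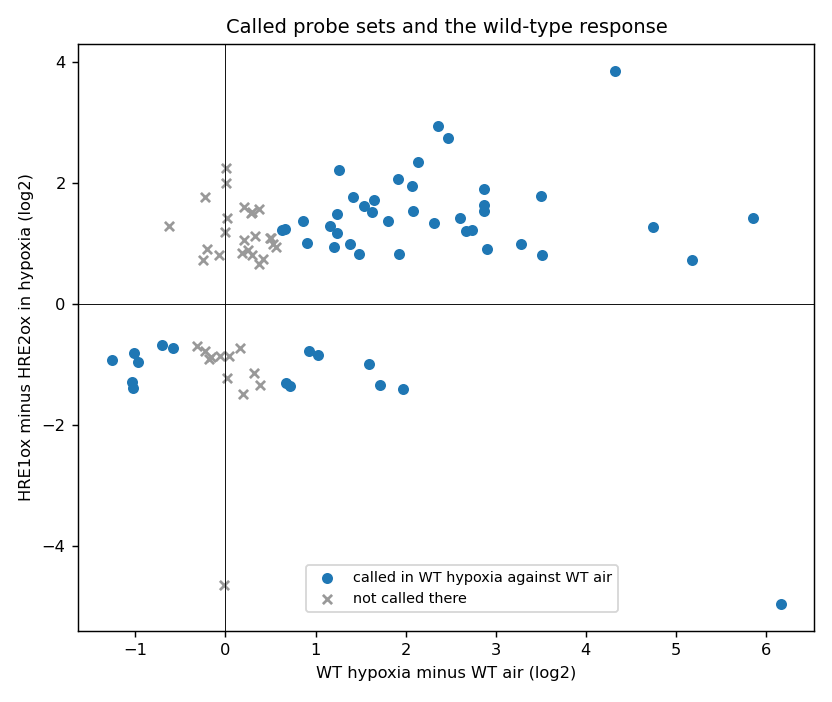
HRE1ox minus HRE2ox in hypoxia against the response of WT to hypoxia (both log2) for the 89 called probe sets; blue circles were called in WT hypoxia against WT air and grey crosses were not. Of the 62 points in the upper part, 56 lie to the right of 0, and no blue circle of the upper part lies to the left.

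The response of WT seedlings to hypoxia was measured on arrays that the line comparison did not use, apart from the pooled spread. Since that spread is shared, a probe set with a small spread is more readily called in both comparisons. How far this raises the shares of calls below was not tested. Of the 62 probe sets higher in HRE1ox, 38 (61.3%) rose in WT in hypoxia and 0 fell, where 3.31% of all tested probe sets rose and 3.27% fell (6.58% in all). The remaining 24 were not called. At an unadjusted p under 0.05, 47 of the 62 were higher in WT hypoxia and 1 was lower, where 7.82% and 9.27% of all tested were, and the median WT response of the 62 was 1.24 against -0.01 over all tested. Of the 27 that were lower in HRE1ox, 8 rose in WT (29.6%) and 7 fell (25.9%), with a median of 0.02. AT4G17670 (3.51), AT2G22880 (2.87), AT4G17260 (2.61) and AT4G30380 (2.47) were among those that rose. AT1G47400 rose in WT (1.71) and was lower in HRE1ox, and AT1G63100 fell in WT (-0.97) and was lower in HRE1ox. AT5G01700 and LCR67 had WT responses of 0.02 and 0.00. Without WT air replicate 2, whose title says WT and whose ecotype entry says 35S::HRE2, 32 of the 62 rose and 0 fell. Without the 4 arrays that stood apart, 30 rose and 0 fell. The unassigned probe set that was highest in HRE2ox read 3.23 on WT air replicate 2 and 3.39 on replicate 1, against 14.50 and 14.40 in HRE2ox air.

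The position of WT in hypoxia was set beside the 2 lines. Among the 62 that were higher in HRE1ox, the WT mean lay nearer to HRE2ox in 58, and among the 27 that were lower in 19. Without the 4 arrays that stood apart these numbers were 57 and 18. Over all 13687 tested probe sets, the WT mean lay nearer to HRE2ox in 6248. Of the 62, 10 entered the test only through the HRE1ox hypoxia arrays, so the filter kept WT and HRE2ox under log2 4. For these 10 a WT mean nearer to HRE2ox was largely set in advance. Against WT, HRE1ox was called higher in 45 of the 62 and lower in 10 of the 27, where 0.511% and 0.329% of all tested probe sets were called (0.84% in all). HRE2ox was called lower in 1 of the 62 and higher in 2 of the 27, where 0.0438% and 0.0292% were (0.0731% in all). The 2 that were higher in HRE2ox than in WT were AT5G24240 and the unassigned probe set with the largest excess in HRE2ox. The median difference from WT of the 62 was 1.17 in HRE1ox and -0.10 in HRE2ox, and that of the 27 was -0.76 and 0.24. Both comparisons use the same WT arrays, and the choice of the 89 by the difference between the lines leaves them no independent weight.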

How the data were processed

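RNA of 12 seedling samples was read on Affymetrix ATH1 arrays. The deposited values are intensities on a linear scale, 1 per probe set and array, made by the authors with GCRMA (background correction and normalization across arrays), per the submitters' processing notes; the sources used here give no version or settings, and raw files were not used. A linear scale was inferred from array medians of 32.8 to 35.7 with no value below 0. Of 22810 probe sets, 64 controls were left out. Values were taken as log2 (intensity + 1), and 13687 probe sets at an intensity of 15 or more on at least 2 arrays were tested. A pseudocount of 1 slightly understates differences of low values. A platform table joined to RefSeq assigned 1 gene to 7341 of these, several to 292 and none to 6054, which are given by identifier. No sequence was available, and promoter motifs were not read.

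Arrays were grouped by title into 6 groups of 2. The tests came from limma 3.58.1 in R 4.3.3 (lmFit, and eBayes without trend), as contrasts of 1 model of the 6 groups, with two-sided p-values adjusted by Benjamini and Hochberg within each comparison. The contrasts were HRE1ox against HRE2ox in hypoxia and in air, their difference (interaction), the WT response, and each line against WT. The spread is pooled over groups, and an exact permutation test of 2 against 2 cannot go below p = 0.333. The steps were tested on simulated data. The members of the comparison, the 25 gene lists and the families were chosen with earlier results of these data known. Where a list gene had several probe sets, the one with the highest mean level stands for it. By the naming rule, the text names, among called probe sets with 1 gene, 15 at each end by difference (13 lower ones exist), 5 at each end without 1 gene, up to 4 called members of each list or family with 3 or more tested, the 5 with the largest interaction, the probe set that earlier results gave as highest in each line, and any gene of the low-oxygen list. Lists and families with under 3 tested members are not described, apart from fermentation and the tissue markers.

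Equal replicate numbers are not said to mark a shared batch, so replicate number enters only an alternative. Other alternatives were other normalizations, filters and pseudocounts, a moderated trend, a minimum change, fewer arrays, and, chosen after seeing the data, terms for or removal of the arrays that stood apart.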

Additional observations from a re-analysis of the deposited data

Results flagged for a closer look

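In 27 of the 89 probe sets called between the lines in hypoxia, the difference between the lines also changed between air and hypoxia, by the interaction term of the limma fit. The value given is the difference in hypoxia minus that in air, on the log2 scale. Among genes it was 2.66 for AT4G30380, 2.09 for AT3G47540, 1.87 for AT2G22880, 1.85 for AT2G07777, 1.63 for AT4G30680, 1.59 for AT5G48350, 1.41 for AT5G01700, 1.37 for AT1G04350 and 1.29 for AT2G44360, all higher in HRE1ox in hypoxia. It was -1.68 for AT1G47400, -1.34 for AT5G45950 and -1.31 for AT1G56060, all lower in HRE1ox in hypoxia. In air AT1G56060 was near background in both lines, at means of 3.24 in HRE1ox and 3.28 in HRE2ox. The size of its change is therefore uncertain. AT4G30680, AT5G48350 and AT5G01700 entered the test only through the HRE1ox hypoxia arrays, so the filter kept them under log2 4 in air.

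Probe sets without a gene were in part chosen after their values were seen. The change was 2.25 for 250610_at, 1.83 for 248125_at, 1.76 for 264561_at, 1.62 for 246310_at, 1.56 for 263391_at, 1.47 for 261191_at, 1.40 for 253710_at and 1.00 for 253120_at. It was -2.07 for 252131_at, -1.65 for 250657_at, -1.21 for 258589_at and -1.14 for 252193_at. Both lines were near background in air for 252193_at, so the size of its change is uncertain. The probe sets 250610_at, 248125_at, 246310_at, 263391_at and 253710_at entered the test only through the HRE1ox hypoxia arrays. The filter thus kept these under log2 4 in air.

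For 3 probe sets the difference was larger in air and had the same direction: -3.62 for the unassigned probe set that was highest in HRE1ox, 6.33 for the one that was highest in HRE2ox, and -2.20 for 260869_at. Probe set 260869_at read 5.99 and 6.04 in HRE1ox, 2.63 and 2.44 in HRE2ox and 5.72 and 5.37 in WT in air, and 11.20 and 11.47, 10.02 and 10.09, and 10.06 and 10.52 in hypoxia. In air HRE2ox was thus the low group, near background, and in hypoxia HRE1ox was the high one.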

How the results depend on the processing

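Each alternative run reuses arrays by which the called probe sets were chosen, so a kept direction was largely set in advance. Of the 89 probe sets called between the lines in hypoxia, none changed direction under any alternative run. Their number was 4 with only the 4 arrays compared, 3 with a minimum change of 2-fold, 28 to 33 without 1 of these arrays and 65 without WT air replicate 2, 318 with the replicate block crossed in HRE2ox, 353 with the 4 arrays that stood apart as a term and 4 without them. In air, against 73, it was 10, 7, 18 to 37 and 63, 658, 427 and 12 under the same settings, and 115 without a filter, where 66.1% were higher in HRE1ox against 80.8%. For the change between air and hypoxia, against 40, it was 9, 5, 5 to 9 and 19, 129, 162 and 1, and 26 with a filter at log2 6. Of the low-oxygen genes, against 3 called, it was 0 with only the arrays compared, 9 with a pseudocount of 16, 0 with a minimum of 2-fold, 1 without WT air replicate 2, 0 to 1 without 1 array, 10 with the crossed block, 11 with the apart term and 0 without those arrays. Their median stayed between 0.71 and 0.79 and 23 to 25 of 25 lay above 0. The share of calls higher in HRE1ox in hypoxia was 69.7%, and 55.2% with the apart term. Numbers under centring, quantile normalization, 1 probe set per gene and a trend were within 1.5 times of these. The cause of these shifts was not tested, beyond the fewer arrays or genes that some settings use.

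With replicate number as a block the lines were called apart in 109 probe sets in hypoxia, 87 of them among the 89, in 96 in air and in 43 for the change between air and hypoxia, and the low-oxygen list had 5 called. Over probe sets, the replicate 1 minus replicate 2 differences correlated at 0.67 to 0.75 in the 6 pairs among the HRE1ox and WT groups and at 0.35 between HRE2ox in air and in hypoxia. Between an HRE2ox group and any other they correlated at -0.58 to -0.24, and at -0.57 between the lines in hypoxia. Replicate 1 is also the array that stood apart in each HRE1ox and WT group; the labels name no shared batch, and what the arrays share was not tested. Values that changed sign were those of AT1G19530 (-0.027 with the apart term) and AT3G10020, which was -0.35 without HRE1ox hypoxia replicate 1 and -0.49 to 0.55 over the fits without 1 array, -0.45 with the apart term and -0.35 without the apart arrays. Neither was called in any of these. Promoter motifs were not run. With 2 arrays a group, small differences and low signals lie beyond these data.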
